A study of Mus musculus with 6 samples.

Results

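Microglia, the resident macrophages of the brain, were followed through 31 genes in the hippocampus of mice given CerM or vehicle. The genes were taken by symbol from the 55414 rows of the deposited expression table, and all 31 had a row. They form 4 groups by role: 14 genes of microglial identity and sensing, the 3 chains of complement C1q, 4 lysosomal and phagocytic genes, and 10 genes linked to activation, antigen presentation or cytokine signalling. The study holds 6 hippocampal RNA libraries, 3 from CerM-treated and 3 from vehicle-treated mice. The sample titles number them as biological replicates. Separate mice are not stated, and p-values therefore reflect only the variation among these 6 samples. The labels do not spell out CerM, and its dose and duration, the strain, age and sex of the mice, and whether either group received corticosterone are not given in the sources used here. The series title concerns ceramides raised through gut bacteria, depression induced by corticosterone, and mitochondria.

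In the healthy brain microglia survey the tissue and depend on signalling through the receptor CSF1R, for which neurons and glia make the ligands CSF1 and IL-34. Neurons also restrain them through CX3CL1, which binds CX3CR1. A homeostatic program that includes P2ry12, Tmem119 and Sall1 marks the resting state. Activated microglia lower that program and express genes such as Cst7, Itgax, Clec7a and Spp1, a shift that the pair TREM2 and TYROBP helps to drive. C1q, made in the brain mainly by microglia, starts the classical complement cascade and tags synapses for removal.

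Levels are given in TPM, a unit scaled for transcript length and library total, so different genes can be set side by side. The unit hides the read depth, which is therefore unknown. Some libraries stood apart from the rest in markers of neighbouring tissue. Ttr, the leading transcript of choroid plexus, stood at 9123, 284 and 10713 TPM in CerM replicates 1 to 3 and at 244, 244 and 15417 TPM in vehicle replicates 1 to 3. The 8 choroid plexus markers summed to between 9316 and 15734 TPM in CerM replicates 1 and 3 and vehicle replicate 3, and to between 253 and 308 TPM in the other libraries. Fat tissue markers summed to 843 TPM in CerM replicate 3 and to at most 2.53 TPM elsewhere. Neocortex markers summed to 289 TPM in vehicle replicate 1 and to between 131 and 132 TPM elsewhere, and the 8 hippocampal neuron markers were lowest in the same library (289.9 against 429 to 496 TPM). Hippocampal neuron markers were thus present in all 6 libraries, and markers of neighbouring tissue were raised in 4 of them.

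No member passed the test between CerM and vehicle. A gene was tested if it averaged 1 TPM or more, which left 25 members and 14916 genes in all. Limma on log2(TPM + 1), with Benjamini-Hochberg adjustment over all tested genes and a threshold of 0.05, called 0 of 25 members and 0 of all genes (0%). At an unadjusted p below 0.05 there were 0 of 25 members, beside 402 of all tested genes (2.70%). The lowest p of a member was 0.0757, for Aif1, at an adjusted p of 0.989. The groups did not overlap in 2 members, Sall1 and C1qc, both higher in CerM, beside 3.26% of all tested genes that did not overlap in that direction. The groups did not overlap with CerM lower in 0 members, beside 4.04% of all tested genes. With 25 members these counts are too small to be read as a departure from the background. The 95% confidence interval of the fold change of TPM + 1 lay within 2-fold either way for 22 of 25 members. It lay within 1.5-fold for 16. Of all 14916 tested genes, 13449 had an interval within 2-fold and 9506 within 1.5-fold, so members were bounded much like other genes. The intervals of Lyz2, Cd74 and Lgals3 reached beyond 2-fold. For genes of a few TPM, an interval on this scale bounds TPM itself less tightly. In bulk tissue, fewer microglia and less RNA per microglial cell cannot be told apart.

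**Figure D1:**
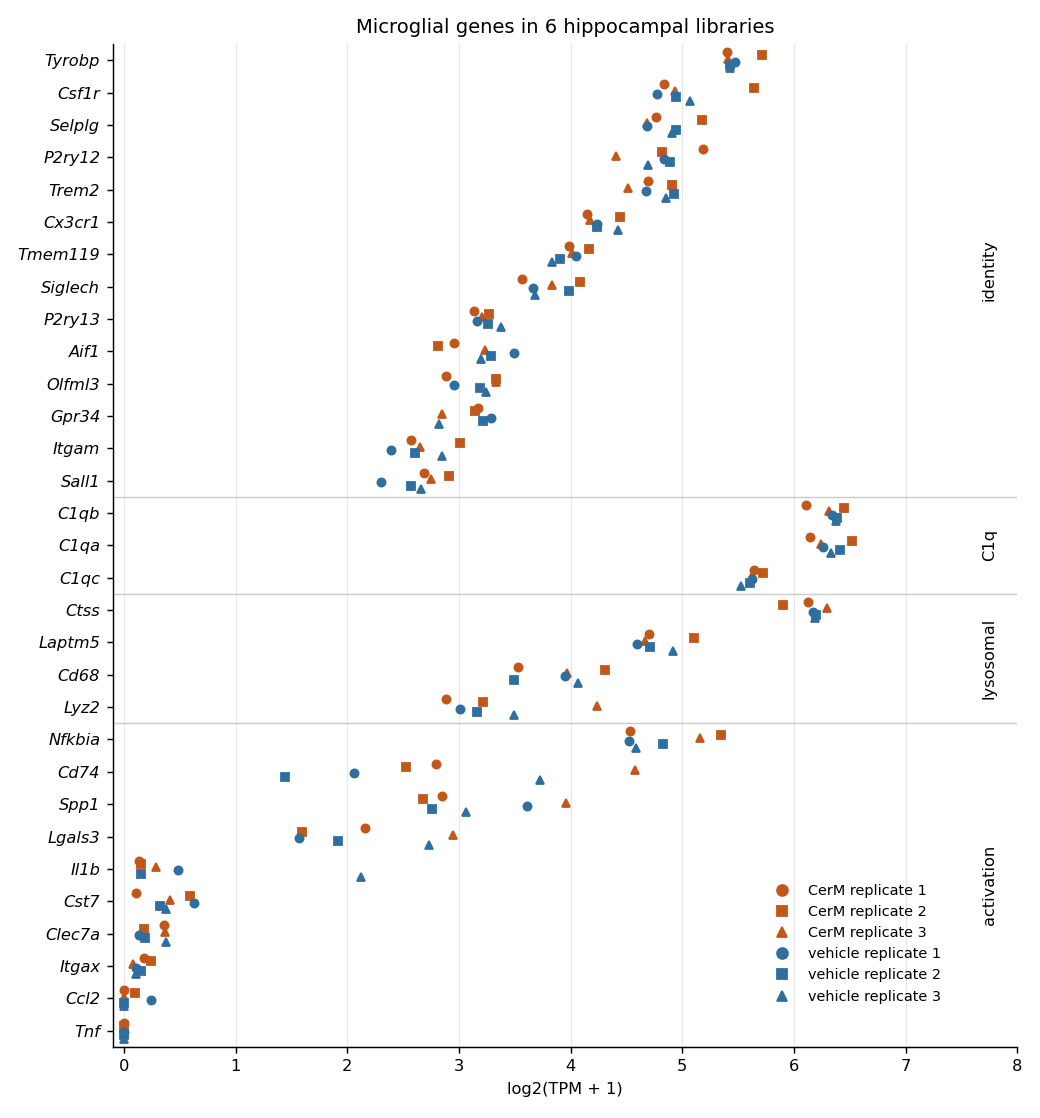
Level of each of the 31 genes, as log2(TPM + 1), in each of the 6 libraries, grouped by role and ordered by mean level within a group. Cd74 has the widest spread among the tested genes, CerM replicate 3 stands apart for Lyz2 and CerM replicate 2 for Csf1r, most other activation genes lie near 0, and vehicle replicate 3 stands alone for Il1b.

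The sequences just upstream of a few of these genes are shown first, with matches to letters that regulators in macrophages bind. The ETS-family factor PU.1 sets macrophage identity. NF-kB is switched on by inflammatory signals and induces its own inhibitor gene Nfkbia. RefSeq windows of 250 bases before the gene start (build GRCm38.p6, an earlier build than the GRCm39 named for the expression table) were at hand for 23 of the 31 members. The letters GAGGAA, a core that ETS factors bind, or TTCCTC on the other strand, occurred in the windows of 12 of these 23 members, beside 23.4% of 32536 windows of all genes. Members with several windows were counted once if any held a match. By role the count was 4 of 9 identity genes, 2 of 2 C1q genes, 3 of 4 lysosomal genes and 3 of 8 activation genes. C1qb and C1qc, neighbours on chromosome 4, and Aif1, the member with the lowest p, are printed with these letters in capitals:
C1qb, chr4:136886201-136886450, minus strand: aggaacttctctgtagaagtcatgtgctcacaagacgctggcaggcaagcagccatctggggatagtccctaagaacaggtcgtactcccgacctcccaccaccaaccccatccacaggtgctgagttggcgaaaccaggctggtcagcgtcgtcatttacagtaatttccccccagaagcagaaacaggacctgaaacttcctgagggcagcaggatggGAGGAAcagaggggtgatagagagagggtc
C1qc, chr4:136892915-136893164, minus strand: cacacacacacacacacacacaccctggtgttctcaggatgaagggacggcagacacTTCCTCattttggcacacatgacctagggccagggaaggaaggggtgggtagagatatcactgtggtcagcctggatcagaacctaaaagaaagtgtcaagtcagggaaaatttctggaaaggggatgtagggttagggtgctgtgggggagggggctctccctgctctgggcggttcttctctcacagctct
Aif1, chr17:35176053-35176302, minus strand: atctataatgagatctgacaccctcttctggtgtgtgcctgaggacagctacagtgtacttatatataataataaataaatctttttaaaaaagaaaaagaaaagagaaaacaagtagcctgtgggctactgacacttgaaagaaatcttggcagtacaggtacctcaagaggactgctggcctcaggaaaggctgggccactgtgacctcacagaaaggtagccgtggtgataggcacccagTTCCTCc

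Counted from the first base of the match to the gene start, the match began 30 bases upstream in C1qb, 193 in C1qc and 7 in Aif1. The NF-kB consensus (the kappaB motif, searched on both strands) occurred in 2 of the 23 members, C1qc at 41 bases and Nfkbia at 29 bases upstream, beside 3.92% of all windows. It overlaps no GAGGAA match in either gene. The Nfkbia window is printed with the kappaB match in capitals:
Nfkbia, chr12:55492648-55492897, minus strand: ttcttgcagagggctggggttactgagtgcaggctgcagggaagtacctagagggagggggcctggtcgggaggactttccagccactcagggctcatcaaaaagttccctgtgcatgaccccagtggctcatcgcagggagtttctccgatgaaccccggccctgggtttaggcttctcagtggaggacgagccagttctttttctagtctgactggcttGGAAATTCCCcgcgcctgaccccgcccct
A match of letters is a description of these windows and shows neither binding nor control.

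Genes that mark microglial identity did not differ detectably between treatments. All 14 passed the TPM minimum. The fold change was above 0 on the log2 scale for 8 and below 0 for 6, and its median was 0.04, beside 0.03 over all tested genes, of which 58.8% lay above 0. The identity median was −0.06 without CerM replicate 2, 0.10 without CerM replicate 1 and −0.01 under quantile scaling. Their summed level was 237, 290.4 and 226 TPM in CerM replicates 1 to 3 and 233, 250.1 and 245 TPM in vehicle replicates 1 to 3. CerM replicate 2 was the highest library, and CerM held both the highest and the lowest sum.

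Among purinergic receptors, P2ry12, with which microglial processes find ATP and ADP released from injured cells, had 35.36, 27.23 and 20.22 TPM in CerM and 27.51, 28.59 and 24.84 in vehicle. The CerM libraries lay on both sides of the vehicle range, and the log2 fold change was 0.00 (95% confidence interval −0.45 to 0.45). P2ry13, its neighbour in the receptor family, had 7.78, 8.65 and 8.24 TPM against 7.93, 8.56 and 9.36. The ratio of P2ry12 to P2ry13 ran from 2.45 in CerM replicate 3 to 4.54 in CerM replicate 1. Gpr34, a receptor for lysophosphatidylserine, had between 6.06 and 8.76 TPM over the 6 libraries, and its log2 fold change was −0.06 ± 0.17 (SE).

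The receptor for the survival signal, Csf1r, had 27.54, 48.88 and 29.54 TPM in CerM and 26.27, 29.86 and 32.53 in vehicle. A single library, CerM replicate 2, stood above all others, and the other CerM values lay within the vehicle range. The log2 fold change was 0.21 (−0.30 to 0.71), and it was −0.04 without that library. Cx3cr1, the receptor for neuronal CX3CL1, had 16.66, 20.77 and 16.99 TPM against 17.81, 17.81 and 20.50, with a log2 fold change of −0.05 (−0.34 to 0.25). CerM replicates 1 and 3 lay below every vehicle library, and CerM replicate 2 lay above them all.

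The sensing receptor gene Trem2 had 24.91, 28.94 and 21.86 TPM in CerM and 24.47, 29.43 and 27.88 in vehicle, with a log2 fold change of −0.11 (−0.42 to 0.20) that ran from −0.21 without CerM replicate 2 to −0.02 without CerM replicate 3. Its adaptor Tyrobp had 41.16, 51.38 and 41.47 TPM against 43.33, 42.04 and 41.99, with 0.06 (−0.20 to 0.33). The vehicle libraries lay close together for Tyrobp, and CerM replicate 2 again lay apart. Tyrobp exceeded Trem2 in every library, by 1.43 to 1.90 times. Itgam, the CD11b integrin chain and complement receptor subunit, had 4.26 to 7.04 TPM over the 6 libraries and a log2 fold change of 0.13 ± 0.19 (SE).

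Aif1, which encodes the calcium-binding protein IBA1 used to stain microglia, had 6.75, 6.04 and 8.38 TPM in CerM and 10.27, 8.76 and 8.18 in vehicle. Its log2 fold change was −0.33 ± 0.16 (SE; 95% confidence interval −0.70 to 0.04). The groups overlapped by one pair, CerM replicate 3 and vehicle replicate 3. It had the most negative value of the 14 identity genes, and it stayed between −0.44 and −0.24 with each library left out in turn. Per unit of C1qa, another microglial transcript, Aif1 averaged 0.092 ± 0.023 with CerM and 0.114 ± 0.019 with vehicle (SD, n = 3 each), ranges that overlapped.

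Sall1, the transcription factor that maintains microglial identity, had 5.44, 6.50 and 5.72 TPM in CerM and 3.93, 4.93 and 5.32 in vehicle. All CerM libraries lay above all vehicle libraries, and the log2 fold change was 0.27 (−0.10 to 0.64). The lowest value belonged to vehicle replicate 1, where the sum of neocortex markers was highest. Without that library the log2 fold change was 0.17. The part of neighbouring tissue in this difference was not tested. Tmem119, another marker that separates microglia from other macrophages, had 14.80, 16.98 and 15.09 TPM against 15.52, 14.01 and 13.26, with 0.12 (−0.15 to 0.40). The remaining identity genes were Siglech, Selplg and Olfml3, with log2 fold changes of 0.05, 0.03 and 0.05; quantile scaling turned the sign for Siglech (−0.002) and Olfml3 (−0.023). Siglech encodes a sialic acid-binding lectin and Selplg the ligand of P-selectin.

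**Figure D2:**
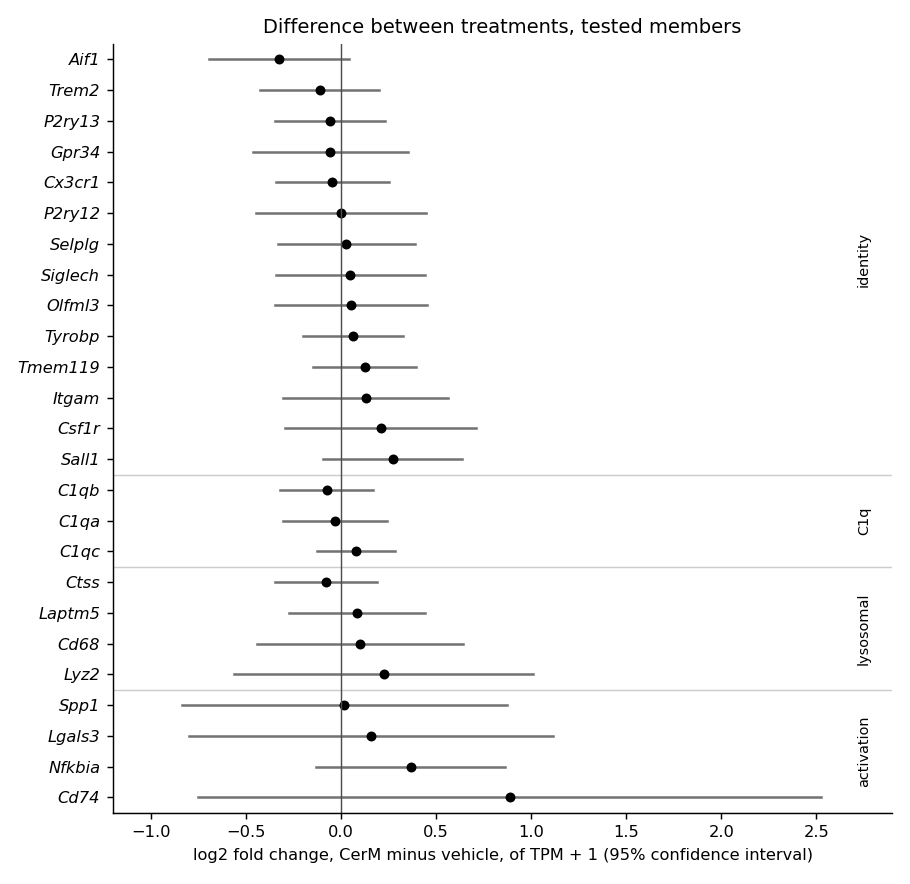
Log2 fold change of TPM + 1, CerM minus vehicle, for the 25 tested members, with its 95% confidence interval from limma. Every interval includes 0, and those of Cd74, Lgals3, Spp1 and Lyz2 are the widest.

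C1qa and C1qb were the most abundant members, ahead of Ctss and C1qc, and C1qc varied least over the 6 libraries. C1qa had 69.69, 90.65 and 74.82 TPM in CerM and 75.47, 84.29 and 79.39 in vehicle. C1qb had 68.12, 86.26 and 78.80 TPM against 80.26, 82.68 and 81.91. C1qc had 48.98, 51.87 and 48.47 TPM against 48.44, 47.77 and 45.02. For all 3 chains the highest library was CerM replicate 2. The groups overlapped for C1qa and C1qb, and for C1qc the lowest CerM library lay above the highest vehicle library by a margin far smaller than the spread within either group.

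Log2 fold changes were −0.03 (−0.31 to 0.24) for C1qa, −0.08 (−0.32 to 0.17) for C1qb and 0.08 (−0.12 to 0.28) for C1qc, whose intervals all lie within 1.5-fold. Their median of −0.03 became −0.14 without CerM replicate 2 and ran up to 0.05 without CerM replicate 1. The proportions of the chains were steady, with C1qa at 0.940 to 1.05 times C1qb and C1qc at 0.567 to 0.703 times C1qa over the 6 libraries. The coefficient of variation over the 6 libraries was 4.54% for C1qc, 7.78% for C1qb and 9.47% for C1qa, beside a median of 14.7% over all tested genes.

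Lysosomal and phagocytic genes did not pass the test either, with 3 of 4 above 0 and a median log2 fold change of 0.09, which was −0.04 without CerM replicate 3 and 0.22 without CerM replicate 1. Ctss, the cathepsin that trims the invariant chain in antigen-presenting cells, had 68.65, 58.90 and 77.81 TPM in CerM and 71.21, 72.30 and 71.98 in vehicle. The vehicle values lay inside the CerM range. Cd68, a lysosomal membrane protein of phagocytes, had 10.56, 18.80 and 14.63 TPM against 14.47, 10.24 and 15.71. Laptm5, a lysosomal protein of blood-derived lineages, had between 23.22 and 33.38 TPM and a log2 fold change of 0.08 ± 0.15 (SE). Lyz2, lysozyme of macrophages and neutrophils, had 6.39, 8.30 and 17.86 TPM against 7.05, 7.96 and 10.28. CerM replicate 3 stood apart, and the log2 fold change of 0.22 (−0.56 to 1.01) was −0.17 without it.

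Activation genes were either scarcely present or varied from library to library. Of the 10, 6 had a mean below 1 TPM and were not tested. Tnf was listed at 0 in all 6 libraries. Ccl2, a chemokine that draws monocytes, was listed at 0 in 4 libraries and reached 0.18 TPM in vehicle replicate 1. Cst7, Itgax and Clec7a, the defining genes of disease-associated microglia, ran from 0.08 to 0.54, 0.06 to 0.18 and 0.10 to 0.30 TPM, and in each the treatments overlapped. Il1b, the inflammatory cytokine, had 0.10, 0.11 and 0.22 TPM in CerM and 0.40, 0.11 and 3.35 TPM in vehicle. The vehicle mean of Il1b rests on 1 library, vehicle replicate 3, and the treatments overlapped. With the depth unknown, the number of reads behind values this low is unknown too.

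The 4 activation genes that were tested were Cd74, Nfkbia, Lgals3 and Spp1, without Cst7, Itgax and Clec7a. In bulk tissue the cells that gave these transcripts were not resolved. All 4 lay above 0, as did 58.8% of all tested genes. Their median log2 fold change was 0.26, and it was 0.02 without CerM replicate 3. With no TPM minimum, so that the listed genes of lower level entered too, the median was 0.04. Cd74, the invariant chain of MHC class II, had 5.92, 4.75 and 22.80 TPM in CerM and 3.18, 1.71 and 12.21 in vehicle. It was high in CerM replicate 3 and vehicle replicate 3 and spanned 13.3 times between its highest and lowest library. Its log2 fold change was 0.89 (−0.75 to 2.53), and it was 0.25 without CerM replicate 3, 0.40 without vehicle replicate 2 and 1.55 without vehicle replicate 3. Nfkbia, the NF-kB inhibitor whose upstream kappaB match is printed above, had 22.10, 39.63 and 34.76 TPM against 21.96, 27.35 and 23.05. CerM replicates 2 and 3 lay above every vehicle library and CerM replicate 1 lay within them, with a log2 fold change of 0.37 (−0.13 to 0.86). It was 0.61 without CerM replicate 1 and 0.20 without CerM replicate 2.

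Lgals3, the galectin of phagocytic cells, had 3.46, 2.02 and 6.71 TPM in CerM and 1.97, 2.78 and 5.65 in vehicle. Spp1, osteopontin, had 6.20, 5.38 and 14.51 TPM against 11.19, 5.78 and 7.34. The highest library was CerM replicate 3 for both, and the treatments overlapped throughout. Log2 fold changes were 0.16 (−0.80 to 1.12) and 0.02 (−0.84 to 0.87). Without CerM replicate 3 they were −0.20 and −0.38, and quantile scaling gave Spp1 −0.05.

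**Figure D3:**
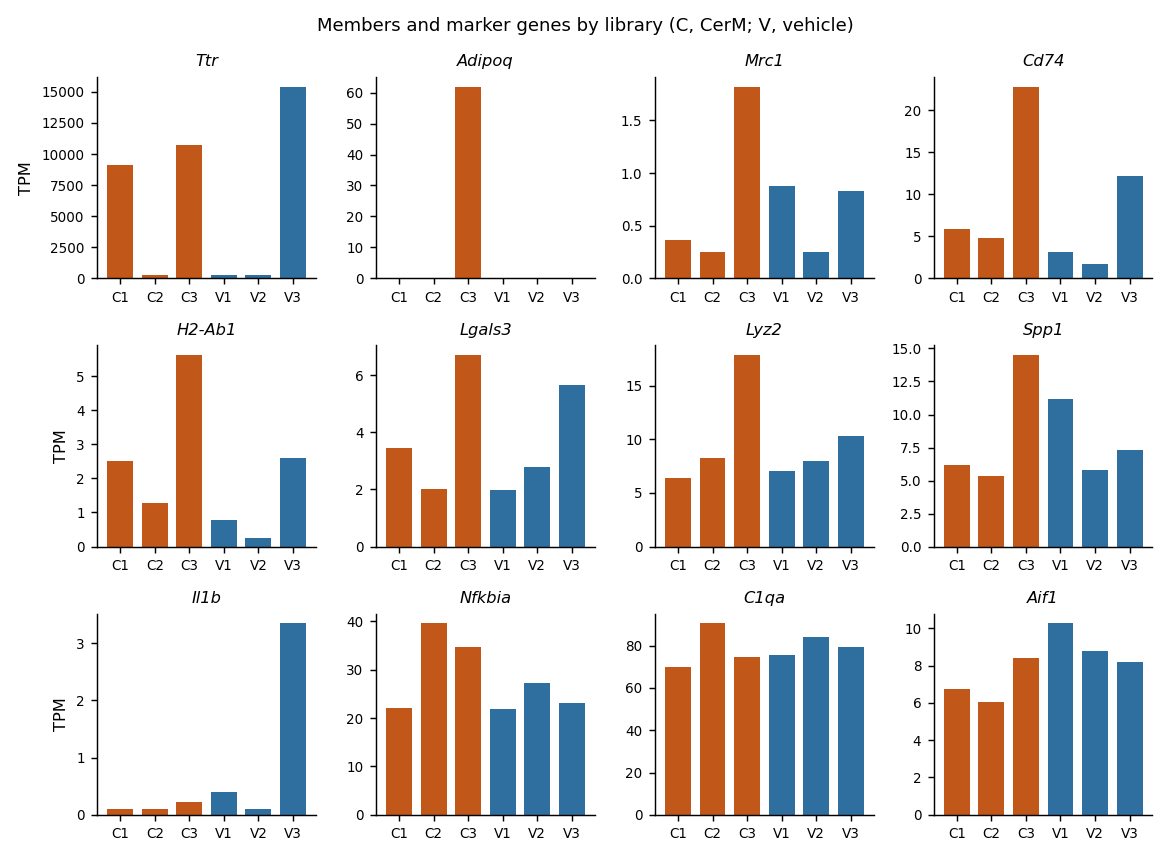
TPM by library, each panel on its own scale from 0, for 3 marker genes (Ttr of choroid plexus, Adipoq of fat, Mrc1 of border macrophages), H2-Ab1 of MHC class II, and 8 of the 31 genes. Cd74, H2-Ab1, Lgals3 and Lyz2 share their highest library, CerM replicate 3, with Adipoq and Mrc1, and all of them but Adipoq and Mrc1 have vehicle replicate 3 as the next highest, while C1qa is highest in CerM replicate 2 and Aif1 in vehicle replicate 1.

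Cd74, Lyz2, Lgals3 and Spp1 were highest in the library that also held markers of fat, and 3 of these 4 genes were second highest in vehicle replicate 3, where choroid plexus markers were highest. Markers of border-associated macrophages, which live in meninges and choroid plexus, had their highest sums in these same libraries: their 10 genes summed to 7.40, 9.51 and 16.79 TPM in CerM and to 10.83, 6.09 and 12.10 TPM in vehicle. These sums did not follow choroid plexus markers in every library. CerM replicate 1 had 7.40 TPM beside 9316 TPM of choroid plexus markers, and vehicle replicate 1 had 10.83 TPM beside 253 TPM. Of these 10 genes, 3 had a mean of 1 TPM or more (Pf4, Cbr2 and Stab1) and none was listed at 0 in all libraries. Mrc1, the mannose receptor of these cells, was at 1.82 TPM in CerM replicate 3 and at most 0.88 TPM elsewhere. The 11 monocyte and neutrophil markers summed to between 1.03 and 3.38 TPM, and the 10 lymphocyte markers to between 0.81 and 1.94 TPM, with 0 genes of either list at a mean of 1 TPM or more. With log2(TPM + 1) of Ttr as a covariate, an alternative chosen after seeing the data, the log2 fold change of Cd74 was 0.41 and that of Lgals3 −0.13. The part of neighbouring tissue in these differences was not tested.

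Set against each other, identity genes varied less between libraries than the tested activation genes did, by the median of each group. The median coefficient of variation over the 6 libraries was 14.7% for identity genes, 7.78% for C1q, 18.7% for lysosomal genes and 48.1% for the 4 tested activation genes. The mean log2(TPM + 1) of the 14 identity genes averaged 3.94 ± 0.14 over CerM and 3.91 ± 0.05 over vehicle libraries, and that of the 10 activation genes to 1.48 ± 0.26 and 1.41 ± 0.27 (SD, n = 3 each). The balance, identity minus activation, was 2.54, 2.76 and 2.08 in CerM replicates 1 to 3 and 2.52, 2.78 and 2.22 in vehicle replicates 1 to 3. Group means of the balance were 2.46 ± 0.35 and 2.51 ± 0.28, a difference of −0.05 that is smaller than the spread within either group. The lowest balance in each treatment belonged to replicate 3, the libraries with the most Ttr. CerM replicate 1, also high in Ttr (9123 TPM), had a balance of 2.54, beside 2.52 in vehicle replicate 1 with 244 TPM of Ttr. The difference ran from −0.20 without CerM replicate 2 to 0.15 without CerM replicate 3. It was 0.027 with a pseudocount of 0.1 and 0.085 with Ttr as a covariate. Of the 10 activation genes, 6 had a mean below 1 TPM. They lay near 0 on this scale, apart from Il1b in vehicle replicate 3, so the balance rests mostly on the 4 tested activation genes.

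**Figure D4:**
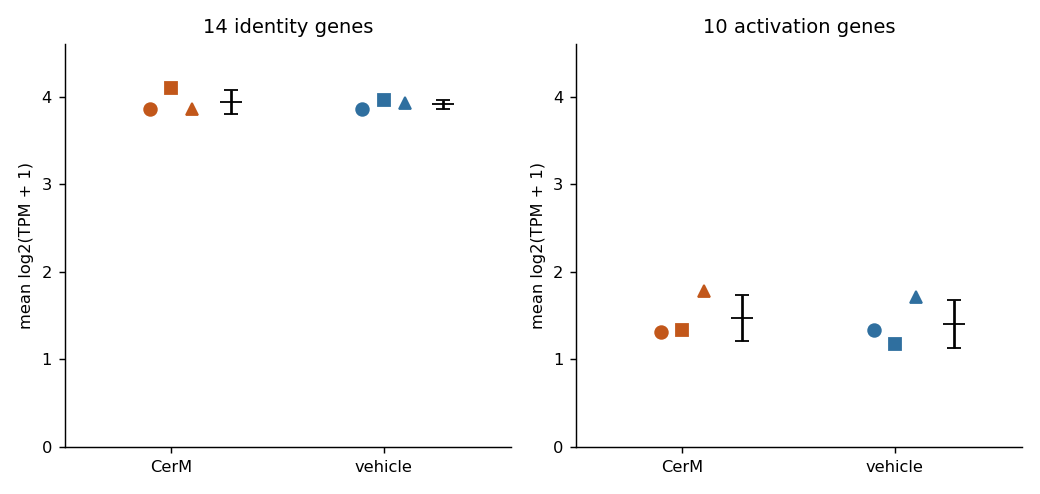
Mean log2(TPM + 1) over 14 identity genes (left) and 10 activation genes (right) in each library, with the mean and SD of each treatment (n = 3) beside the points; circles, squares and triangles are replicates 1, 2 and 3. Identity means lie between 3.86 and 4.10, and activation means between 1.18 and 1.78, highest in replicate 3 of both treatments.

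Which library was extreme depended on the group of genes. CerM replicate 2 was the highest library for 15 of the 25 tested members, among them 9 of 14 identity genes and 3 of 3 C1q genes. CerM replicate 3 was the highest for 3 of 4 activation genes and 2 of 4 lysosomal genes, and for 0 identity genes. CerM replicate 1 was the lowest for 8 of 25, 5 of them identity genes. Vehicle replicate 1 was the lowest for 6 of 25. The libraries with the largest counts at either extreme thus both came from CerM, but low values were not confined to CerM. CerM replicate 2 also had the highest sum of the 6 astrocyte markers (1123 TPM against 699 to 997 TPM elsewhere) and of the 6 oligodendrocyte markers (6953 against 3807 to 6634 TPM), and its part in the members' values beyond the left-out fits was not tested.

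The ligands Il34 and Cx3cl1 stood above their receptors Csf1r and Cx3cr1 in every library. Of 8 ligand genes tested, 4 lay above 0 and 0 passed the test (median 0.03). Csf1 had 11.27, 13.31 and 14.16 TPM in CerM and 9.29, 11.19 and 11.38 in vehicle, where the groups overlapped only at CerM replicate 1, with a log2 fold change of 0.26 (−0.06 to 0.58). Il34 had 56.00, 67.53 and 51.97 TPM against 91.58, 67.70 and 58.09, with −0.29 (−0.71 to 0.13). The highest Il34 value belonged to vehicle replicate 1, where the sum of neocortex markers was highest. Without that library the log2 fold change was −0.11. Cx3cl1 had 284.74, 348.70 and 281.49 TPM against 319.23, 303.95 and 322.80, which is 15.8 to 17.9 times the level of Cx3cr1 in the same library.

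Tgfb1, a cytokine that sustains microglial identity, had 5.03, 3.65 and 5.63 TPM in CerM and 3.21, 3.54 and 3.43 in vehicle. It alone of the 8 tested ligands had groups that did not overlap, beside 3.26% of all tested genes with CerM higher. Its log2 fold change was 0.38 (−0.04 to 0.79), and it had the lowest p of the ligand list. Apoe, a lipid carrier that binds TREM2, was at 4954 ± 295 TPM against 4600 ± 836. Its spread within vehicle exceeded the difference between treatments.

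A further list of microglial genes held 26 names. Of these, 23 were tested, 14 lay above 0 and 0 passed the test, with a median log2 fold change of 0.04. The lowest p of the list belonged to Adgre1, which encodes F4/80, with 1.93, 3.58 and 3.46 TPM against 2.04, 1.52 and 1.92. Hpgds, the haematopoietic prostaglandin D synthase, had 1.94, 2.28 and 1.46 TPM against 2.71, 2.27 and 3.38, and Rgs10, a regulator of G protein signalling, had 56.5 ± 5.56 against 64.8 ± 6.99. Each of these pairs of groups overlapped.

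Other complement genes did not pass the test either, and C3, C1s1 and Cfd were highest in CerM replicate 3. Of 21 listed, 13 were tested, 13 lay above 0 (all tested genes: 58.8%) and 0 passed the test, with a median log2 fold change of 0.21. C3, the central component of the cascade, had 0.86, 2.03 and 7.97 TPM in CerM and 0.20, 1.23 and 1.21 in vehicle. Its log2 fold change of 1.03 (−0.29 to 2.36) was 0.39 without CerM replicate 3. C4b had 8.69, 14.59 and 14.25 TPM against 7.03, 11.99 and 10.95, with 0.30 (−0.29 to 0.88). C1s1, a protease of the C1 complex, had 0.57, 1.08 and 2.76 TPM against 0.12, 0.44 and 1.06. Cfd, the fat-cell product adipsin, had 408.53 TPM in CerM replicate 3 and was listed at 0 in the other 5 libraries.

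Among MHC class II genes, 5 of 6 were tested, 4 lay above 0 and 0 passed the test (median 0.48). H2-Ab1 had 2.5, 1.29 and 5.62 TPM in CerM and 0.77, 0.26 and 2.60 in vehicle, with a log2 fold change of 0.91 (−0.25 to 2.06), which was 0.50 without CerM replicate 3 and 1.33 without vehicle replicate 3. H2-Aa had 2.29, 1.27 and 9.41 TPM against 1.80, 0.70 and 4.19. Both were highest in CerM replicate 3, as was Cd74, the invariant chain with which they assemble. H2-DMb1, which helps to load peptides, was highest in CerM replicate 1 instead, at 4.54 TPM, against 0.85 to 3.62 TPM in the others.

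In the list of cytokine, inflammasome and NF-kB genes, 18 of 31 were tested, 13 lay above 0 and 0 passed the test (median 0.13). The groups did not overlap in 2 of the 18, both higher in CerM, beside 3.26% of all tested genes in that direction. The 3 genes described here were chosen for the lowest p of the list. Nfkbiz, an inducible regulator of NF-kB targets, had 2.16, 2.15 and 1.89 TPM in CerM and 1.24, 1.46 and 1.21 in vehicle. The groups did not overlap, and the log2 fold change was 0.41 (−0.00 to 0.83) and no call. It stayed between 0.38 and 0.46 with each library left out in turn, a steadiness that the choice by lowest p favours. Tnfaip3, which encodes the feedback inhibitor A20, had 2.47, 2.83 and 2.59 TPM against 1.74, 2.22 and 2.12, also with no overlap and a log2 fold change of 0.26 (−0.13 to 0.66). Icam1, an adhesion molecule of endothelium and glia, had 1.52, 1.61 and 2.39 TPM against 0.83, 1.11 and 1.6, where CerM replicate 1 and vehicle replicate 3 overlapped.

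Other genes raised in disease-associated microglia gave 17 tested of 20, 13 above 0 and 0 that passed the test (median 0.13). In bulk tissue the cells that gave these transcripts were not resolved, so the list is not a reading of microglia alone. Apoe averaged 4777 TPM and Ctsb 416 TPM over the 6 libraries, beside 79.7 TPM for the member C1qb. The lowest p of the list belonged to Csf1, given above. Lpl, lipoprotein lipase, had 16.64, 21.25 and 41.58 TPM in CerM and 12, 19.38 and 19.31 in vehicle, and its log2 fold change of 0.54 was 0.18 without CerM replicate 3. Lpl is also abundant in fat cells, whose markers stood in that library. Hif1a, the hypoxia-induced transcription factor, had 24.6 ± 0.67 TPM against 22.7 ± 1.79 (SD). The ligand list and this list share Csf1 and Apoe.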

How the data were processed

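Per the labels' protocols, RNA of 6 mouse hippocampus samples was isolated with TRIzol, cleared of DNA by DNase I and sequenced from TruSeq libraries. The table deposited by the authors holds TPM values with 2 decimals. Per the submitters' processing notes, the tools were HISAT2, StringTie and RSEM and the build GRCm39, with no versions or roles given. Each column was matched to a sample by its title, and 0 columns were unmatched.

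The test was limma 3.58.1 (R 4.3.3) with a variance trend, applied to log2(TPM + 1) of genes averaging 1 TPM or more, two-sided, adjusted by the Benjamini-Hochberg method over 14916 genes. Fold changes on this scale understate the change of low genes. The test was checked on simulated data. Members, lists and tests were chosen with earlier results of these data known. Members were all named. From each of 6 pathway lists the 3 genes of lowest p were named, and Csf1, Il34, Cx3cl1, C3, C4b and Apoe by name; 1 further gene of that rule is not reported here. Lists are described by counts and medians. Protein sequences were not used here. Further software was Python 3.11.15 with pandas 2.3.3, numpy 2.4.6 and matplotlib 3.10.9.

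Alternatives changed the pseudocount (0.1), the TPM minimum (none), the scaling (quantile, median-ratio), the variance trend and the replicate block, and left out each library in turn. Ttr as a covariate, and leaving out CerM replicate 3 and vehicle replicate 1 together, were chosen after seeing the data.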

Additional observations from a re-analysis of the deposited data

How the results depend on the processing

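Limma called 0 members in the main setting and in all 14 alternatives, with an adjusted p of at least 0.748. It called 0 of all genes with all libraries kept and in every scaling, and 0 to 7 genes with one library left out (7 without CerM replicate 3), and 1 without CerM replicate 3 and vehicle replicate 1 together. At an unadjusted p below 0.05, the replicate block gave 2 of 25 members, Cd74 and Nfkbia, beside 496 of 14916 tested genes. It gave 0 called genes. The fit without the block had 0 members at that p, beside 402 of all tested genes. Such a p was also reached by Nfkbia without CerM replicate 1, beside 507 of all tested genes. It was reached by Aif1 without CerM replicate 3, beside 275, and by Cd74 without vehicle replicate 3, beside 966. No member reached it in the other settings. The sample titles do not say whether same-numbered libraries are paired, and pairing was not settled here. Deviations of same-numbered libraries correlated at 0.008, 0.196 and 0.222 across genes, and those of other pairs at −0.207 to 0.065. Each library correlated best with its own number except vehicle replicate 1. The C1q median ran from −0.139 to 0.048 with one library left out, and the activation median was −0.037 without CerM replicate 3 and vehicle replicate 1 together. The cause of each change below was not tested.

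Many fold changes, the largest of them H2-Aa (0.55), Lpl (0.54), C4b (0.30), Lyz2 (0.22), Csf1r (0.21) and Lgals3 (0.16), turned sign. They did so with 1 library left out, or with CerM replicate 3 and vehicle replicate 1 left out together. On the log2 scale their ranges over these settings were Cx3cr1 (−0.14 to 0.019), Gpr34 (−0.20 to 0.14), Csf1r (−0.044 to 0.36), Tyrobp (−0.038 to 0.13), Itgam (−0.002 to 0.24), Siglech (−0.078 to 0.18), Selplg (−0.12 to 0.12), Olfml3 (−0.11 to 0.20), C1qa (−0.14 to 0.048), C1qb (−0.15 to 0.015), Ctss (−0.18 to 0.025), Cd68 (−0.086 to 0.30), Laptm5 (−0.055 to 0.17), Lyz2 (−0.28 to 0.51), Spp1 (−0.38 to 0.26), Lgals3 (−0.45 to 0.49), Apoe (−0.037 to 0.24), C4b (−0.020 to 0.52), Cx3cl1 (−0.15 to 0.009), H2-Aa (−0.12 to 1.01), Lpl (−0.038 to 0.81). Quantile scaling gave −0.002 for Siglech, −0.023 for Olfml3, −0.048 for Spp1, 0.008 for Cx3cl1. Median-ratio scaling gave −0.004 for Spp1. Ttr as a covariate gave 0.031 for Gpr34, 0.013 for C1qa, −0.068 for Spp1, −0.13 for Lgals3. Aif1, P2ry13, Tmem119, Trem2, Sall1, C1qc, Cd74 and Nfkbia kept their sign in all 14 alternatives, P2ry12 with a value of 0.00 ran from −0.191 to 0.212, and 15 of 20 other named genes did not turn. No sign change concerned a called gene. TPM holds no depth, so the precision of genes below 1 TPM is unknown.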
